A study of Mus musculus with 4 samples.

Results

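The cells described here were 365 splenic B cells, 211 in library 7 and 154 in library 8, that carried many transcripts of the chemokine genes Ccl3 and Ccl4 and few of Il10. The series is a single-cell RNA-Seq (scRNA-Seq) experiment on B cells purified from the spleens of WT mice, made with the 10x Genomics Chromium 3' v3 chemistry, in which each unique molecular identifier (UMI) stands for 1 captured mRNA molecule. The labels describe 2 replicates of Bregs-CpG, cultured for 3 days with the TLR9 ligand CpG B ODN 1668, and 2 replicates of Bregs-TLR, which had the same culture and also received LPS, PMA, and ionomycin for the final 5 hours. All cells had therefore seen CpG, and a freshly isolated B cell was not among the samples analysed here. The barcodes number the 4 libraries 5 to 8 and name no sample, so no library was assigned to Bregs-CpG or Bregs-TLR, and the cells of libraries 7 and 8 were described as 2 libraries and not as replicates of a known condition.

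Membership was read from the counts. Of the 19920 cells of the series, 18534 passed the limits of 1000 or more genes with a UMI and a mitochondrial share below 10%, 9624 of them in libraries 7 and 8. Of these, 7715 were noncycling, which here means fewer than 5 Jchain UMIs, fewer than 10 UMIs over the mitotic genes Mki67, Top2a, Birc5, Cenpf, Ube2c, Cdk1, Hmmr, and Tpx2, and under 0.1% of UMIs from the replication genes Mcm2 to Mcm7 and Gins2. A noncycling cell was called chemokine-high when Ccl3 and Ccl4 together had at least 10 UMIs and Il10 had fewer than 5. These cells made up 4.73% of the noncycling cells (95% Clopper-Pearson interval 4.27 to 5.23), with 4.70% in library 7 (4.10 to 5.36) and 4.78% in library 8 (4.07 to 5.57). The intervals of the 2 libraries overlapped almost fully. Libraries 7 and 8 held 64431719 and 46295477 UMIs in 5892 and 4262 cells. Pairs of the 4 libraries shared between 1 and 8 barcodes, 1 chemokine-high cell shared its barcode with a cell of library 5 and 1 with a cell of library 6, and none was shared between chemokine-high cells. Intervals given here cover counting error only and contain no variation between mice or cultures.

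CCL3 and CCL4 (MIP-1α and MIP-1β) are closely related CC chemokines that attract T cells, NK cells, and monocytes through shared receptors. B cells are known to make them after activation through the B cell receptor (BCR) or Toll-like receptors, and IL-10 is the cytokine by which regulatory B cells are most often recognised. Both chemokine genes lie next to each other on chromosome 11 in opposite orientation, Ccl3 at chr11:83647844-83649355 on the minus strand and Ccl4 at chr11:83662584-83664683 on the plus strand (GRCm38, which is mm10).

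Because Ccl3, Ccl4, and Il10 chose the cells, their levels are given as a description only. Levels are counts per 1000000 UMIs (CPM) after summing over the cells of a group. Ccl4 reached 3735 CPM in the chemokine-high cells of library 7 and 3392 CPM in those of library 8. Ccl3 was at 522 and 471 CPM. In each library Ccl4 thus had 7.16 and 7.20 UMIs for each Ccl3 UMI. In the chemokine-low cells, which had fewer than 5 Il10 UMIs and at most 1 UMI of Ccl3 and Ccl4, the levels were 7.30 and 6.65 CPM for Ccl4 and 5.67 and 4.93 CPM for Ccl3.

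Il10 was limited in the same way in both groups. It was at 144 CPM in the chemokine-high cells of library 7 and 145 CPM in those of library 8, beside 122 and 130 CPM in chemokine-low cells of like depth, which had the same upper limit on Il10. Of the chemokine-high cells, 73 in library 7 and 43 in library 8 had no Il10 UMI, while 35 and 20 had the 4 UMIs that the limit still allowed. The name "Il10-lower" is therefore a product of the limit, since all noncycling cells together had 264 and 257 CPM of Il10, and it does not describe a difference from chemokine-low cells under that limit.

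The cells next to the limits are given as a description. In library 7, 20 cells had 10 to 11 Ccl3 and Ccl4 UMIs (930.1 CPM) and 28 cells just outside had 8 to 9 (793 CPM). In library 8 the same bands held 22 cells (1005 CPM) and 23 cells (763 CPM). Above the Il10 limit, 28 and 22 cells with many chemokine UMIs had exactly 5 Il10 UMIs, beside the 35 and 20 with 4.

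The amount of chemokine mRNA varied widely among the chemokine-high cells. In library 7 the sum of Ccl3 and Ccl4 UMIs per cell had a minimum of 10, a median of 28, and a maximum of 296, and in library 8 it had a minimum of 10, a median of 25, and a maximum of 338. In library 7, 83 cells had 10 to 19 UMIs, 73 had 20 to 49, 28 had 50 to 99, and 27 had 100 or more. The corresponding numbers in library 8 were 61, 51, 30, and 12. The 10 highest cells held 24.3% and 29.9% of all Ccl3 and Ccl4 UMIs of their group.

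Most chemokine-high cells made much more Ccl4 than Ccl3, and some carried 1 of them alone. The median share of Ccl4 among the Ccl3 and Ccl4 UMIs of a cell was 92.0% in library 7 and 90.8% in library 8. No Ccl3 UMI was seen in 54 and 42 cells, and no Ccl4 UMI in 14 and 4 cells. Ccl3 exceeded Ccl4 in 28 of 211 and 17 of 154 cells. Noncycling cells of libraries 7 and 8 with 5 or more Il10 UMIs and at least 10 chemokine UMIs had nearly the same balance, at 7.33 and 7.58 Ccl4 UMIs per Ccl3 UMI.

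**Figure D1:**
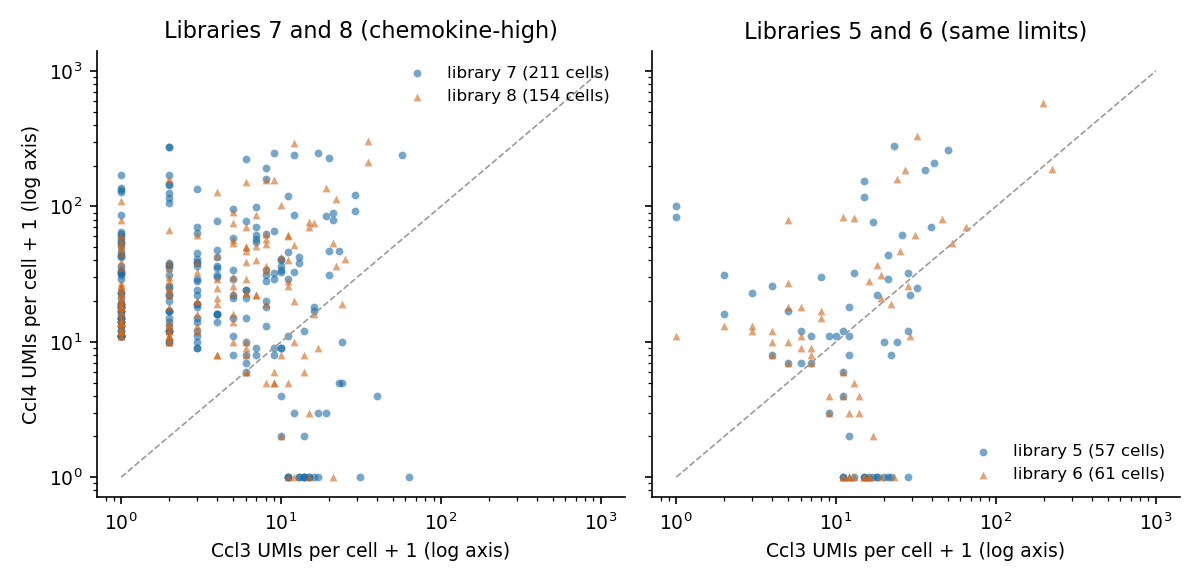
UMIs of Ccl4 (vertical) against Ccl3 (horizontal) in single cells, each plus 1 on log axes, for the chemokine-high cells of libraries 7 and 8 (left) and for cells of libraries 5 and 6 under the same limits (right). Each point is a cell and the dashed line marks equal counts, below which lie 28 of 211 cells in library 7 and 17 of 154 in library 8, but 25 of 57 and 26 of 61 cells in libraries 5 and 6.

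In libraries 5 and 6, the same limits were met by fewer cells with another balance of the 2 chemokines. There, 57 of 3817 noncycling cells in library 5 (1.49%, 1.13 to 1.93) and 61 of 4246 in library 6 (1.44%, 1.10 to 1.84) qualified. Ccl4 was at 2353 and 2466 CPM and Ccl3 at 967 and 1274 CPM, which makes 2.43 and 1.94 Ccl4 UMIs per Ccl3 UMI. The highest 10 cells held 59.9% and 68.5% of the chemokine UMIs. The cells of libraries 5 and 6 also had far less Il10 and more Ly6d and Ms4a1 than those of libraries 7 and 8, with 13.7 and 11.1 CPM of Il10 in all passing cells beside 255 and 253 CPM, so a difference between these pairs of libraries cannot be told apart from whatever else separates them.

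Cells with many chemokine UMIs were found in both Il10 classes of the noncycling cells of libraries 7 and 8. They made up 12.9% of noncycling cells with 5 or more Il10 UMIs (233 of 1811 cells, 11.4 to 14.5) and 6.18% of those with fewer (365 of 5904 cells, 5.58 to 6.83). Both shares depend on the depth of the cells through fixed UMI limits. With each cell thinned to 5000 UMIs and the limits set to 5 chemokine and 3 Il10 UMIs, which left out 355 of 7715 cells, the shares were 9.74% (8.26 to 11.4) and 7.10% (6.46 to 7.79). The gap between the classes was smaller than before, but the limits and the cells changed together with the depth, and their parts were not tested apart. Within library 7 the thinned shares were 9.55% (7.66 to 11.7) and 7.19% (6.35 to 8.11), and within library 8 they were 10.03% (7.73 to 12.8) and 6.98% (6.01 to 8.05), so that the intervals overlapped in each library and were apart only in the cells of both. These shares rest on the counts of the rule and are a description. Cells with at least 10 chemokine and fewer than 5 Il10 UMIs made up 5.44% of 1269 S-phase cells, 6.81% of 558 mitotic cells, and 1 of 82 Jchain-high cells (1.22%, 0.0309 to 6.61).

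To ask which other genes went with the chemokines, each chemokine-high cell was set beside 1 chemokine-low cell of the same library with the nearest total UMI count. All 365 cells found a partner within 5%. Median depth was 10546 against 10480 UMIs in library 7 and 9820 against 9773 in library 8, and the groups held 2377459 and 2367819 UMIs in library 7 and 1683782 and 1672776 in library 8. The mitochondrial share was 4.51% against 4.47% in library 7 and 4.56% against 4.72% in library 8, and the ribosomal protein share 32.5% against 32.2% and 33.4% against 33.4%. Depth and these 2 measures of RNA quality were thus nearly the same in both groups. A gene was called where its ratio was at least 2-fold in the same direction in both libraries, among 5270 genes with at least 50 UMIs over both groups in each library. The chemokine genes and the other genes of the rule were left out. No p-value was computed, because single cells are not replicates and no library is tied to a sample.

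Few genes passed 2-fold. Higher in the chemokine-high cells were 12 genes (0.228% of the 5270) and lower were 3 (0.0569%). The medians over all genes tested were -0.03 in library 7 and -0.01 in library 8 on the log2 scale. In library 7 by itself 27 of the tested genes were at least 2-fold higher, and in library 8 by itself 24, while 22 were at least 2-fold lower in each. Of the 12 shared genes, 8 reached 50 CPM in the chemokine-high cells of both libraries, the group in which they were higher: Slamf7, Serpinb9, Serpinb6b, Il1rn, Ifih1, Kctd12, Serpinb1a, and Nfkbiz. None of the 3 lower genes reached that level in the matched cells of both libraries.

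**Figure D2:**
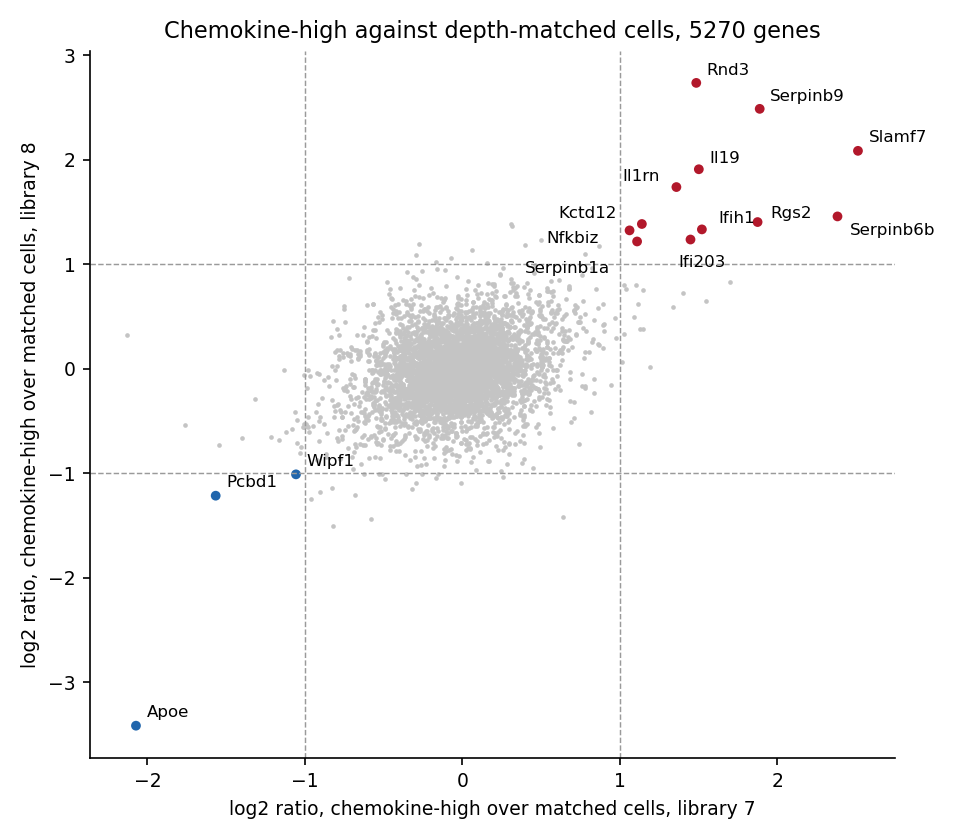
Log2 ratio of chemokine-high over matched chemokine-low cells in library 7 (horizontal) and library 8 (vertical), 1 point for each of 5270 genes, with dashed lines at 2-fold. The 12 genes higher (red) and 3 lower (blue) in both libraries are named, and most other genes form a cloud around 0.

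Slamf7 (chr1:171632403-171653035, minus strand) encodes a self-ligating receptor of the SLAM family on activated lymphocytes and NK cells. Its level was 98.8 CPM in chemokine-high and 17.3 CPM in matched cells of library 7, and 91.5 and 21.5 CPM in library 8. The log2 ratios were 2.51 (95% interval 2.03 to 3.03) and 2.09 (1.56 to 2.65). At least 1 Slamf7 UMI was found in 96 of 211 chemokine-high and 23 of 211 matched cells of library 7, and in 69 and 19 of 154 cells of library 8. The difference was therefore spread over many cells, and the cell with the most UMIs held 6.81% of those in the chemokine-high cells of library 7. In libraries 5 and 6, Slamf7 was also higher in cells with many chemokine UMIs, at log2 ratios of 1.70 and 0.68.

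The serpin genes Serpinb9, Serpinb6b, and Serpinb1a lie in the same cluster of intracellular serine protease inhibitor genes on chromosome 13. SERPINB9 is the inhibitor of granzyme B, and SERPINB1 inhibits neutrophil proteases such as elastase. Serpinb9 (chr13:33003250-33017957, plus strand) was at 100.1 against 27.0 CPM in library 7 and 77.2 against 13.7 CPM in library 8, with log2 ratios of 1.89 (1.49 to 2.31) and 2.49 (1.84 to 3.20). Serpinb6b (chr13:32965209-32979067, plus strand) was at 223 against 42.7 CPM and 156 against 56.8 CPM, with log2 ratios of 2.38 (2.07 to 2.70) and 1.46 (1.12 to 1.81). Serpinb1a (chr13:32842092-32851185, minus strand) was at 207 against 95.9 CPM and 166 against 71.1 CPM, with log2 ratios of 1.11 (0.88 to 1.34) and 1.22 (0.91 to 1.54). The 3 genes were chosen by these ratios, so the intervals give their precision only. Serpinb1a did not stay past 2-fold throughout, with a mean log2 ratio of 0.78 where partners were drawn within bins of depth. Serpinb6b was the most uneven of the 3 in the matched cells, where 1 cell held 32.7% of its UMIs in library 7 and 28.4% in library 8.

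Il1rn and Nfkbiz belong to the response to IL-1 and Toll-like receptor ligands. Il1rn (chr2:24336853-24351494, plus strand) encodes the IL-1 receptor antagonist, which blocks IL-1 at its receptor. It was at 84.5 CPM in chemokine-high and 32.9 CPM in matched cells of library 7 and at 65.9 and 19.7 CPM in library 8, with log2 ratios of 1.36 (0.98 to 1.76) and 1.74 (1.17 to 2.35). It was seen in fewer cells than Slamf7, with at least 1 UMI in 46 against 28 cells and in 32 against 11 cells. Nfkbiz (chr16:55811375-55838899, minus strand) encodes IκBζ, a nuclear cofactor of NF-κB. It had the highest level of the 8 genes, 237 against 114 CPM in library 7 and 223 against 89.1 CPM in library 8, with log2 ratios of 1.06 (0.85 to 1.28) and 1.33 (1.05 to 1.61). Nfkbiz UMIs were found in 167 of 211 chemokine-high and 114 matched cells of library 7, and in 119 and 72 of 154 cells of library 8.

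Ifih1 (chr2:62595798-62646255, minus strand) encodes MDA5, the cytosolic sensor of long double-stranded RNA. It was at 93.4 against 32.5 CPM in library 7 and 75.4 against 29.9 CPM in library 8, with log2 ratios of 1.52 (1.14 to 1.92) and 1.34 (0.85 to 1.84). Kctd12 (chr14:102976581-102982637, minus strand), known as an auxiliary subunit of GABA-B receptors, was at 82.9 against 37.6 CPM and 76.6 against 29.3 CPM, with log2 ratios of 1.14 (0.77 to 1.52) and 1.39 (0.90 to 1.89). Kctd12 fell to a mean log2 ratio of 0.94 in cells under 5% mitochondrial UMIs. For both genes 90 of 211 chemokine-high cells of library 7 had a UMI, beside 55 matched cells.

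**Figure D3:**
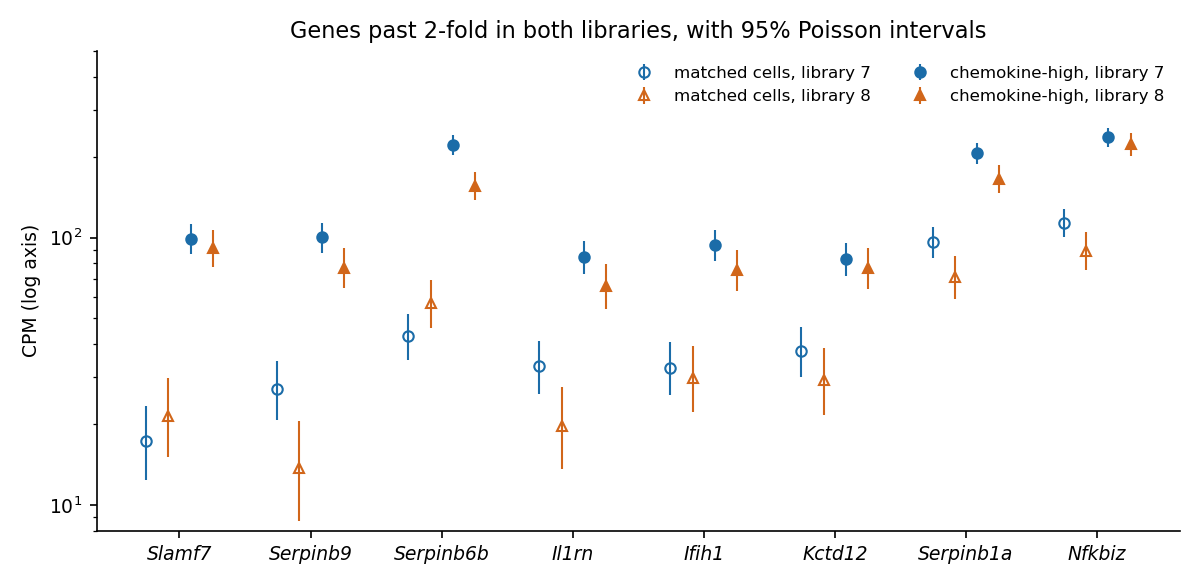
Level of 8 genes in CPM on a log axis, in chemokine-high cells (filled) and matched chemokine-low cells (open) of library 7 (circles) and library 8 (triangles), with exact 95% Poisson intervals from counting error. For each gene the filled symbols of both libraries lie above both open ones, from 98.8 and 91.5 against 17.3 and 21.5 CPM for Slamf7 to 237 and 223 against 114 and 89.1 CPM for Nfkbiz.

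Promoter sequences were taken from a set made from the RefSeq annotation of GRCm38.p6. This set gave an entry for 7 of the 10 genes asked for (Ccl3, Ccl4, and the 8 named genes), with 9 start sites. It gave none for Ccl4, Serpinb1a, and Nfkbiz, whose promoters were therefore not searched. The windows of 250 bases before to 50 after each start were searched on both strands for the AP-1 motif TGANTCA and the NF-κB motif, GGGA followed by any 4 bases and CC, the binding motifs of the factors that PMA, BCR, and Toll-like receptor signals activate. An AP-1 match was found in 2 of the 9 windows and an NF-κB match in 1, while 7.81% and 20.7% of 32851 mouse promoter windows of the same length hold them. A match is a run of letters and was not shown to be bound. The stretch around the match of Slamf7 (chr1:171649015-171649061, minus strand) and the bases before the first start of Il1rn (chr2:24336610-24336859, plus strand) are shown 5′ to 3′ because Slamf7 had the highest ratio in library 7 and Il1rn held both motifs, which stand in capitals, the AP-1 match first in Il1rn.
Slamf7: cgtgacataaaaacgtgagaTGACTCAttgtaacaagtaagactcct
Il1rn: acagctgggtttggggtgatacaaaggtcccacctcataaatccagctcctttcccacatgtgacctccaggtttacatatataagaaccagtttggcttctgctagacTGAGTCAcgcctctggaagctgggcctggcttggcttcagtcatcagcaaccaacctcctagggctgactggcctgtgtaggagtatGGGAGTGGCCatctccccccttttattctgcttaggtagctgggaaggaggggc

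The remaining 4 higher genes were below 50 CPM in at least 1 library and are named because they are few, after their values were seen. They were Il19, the IL-10 family cytokine gene beside Il10 on chromosome 1 (53.8 against 19.0 CPM in library 7 and 31.5 against 8.37 CPM in library 8), Rgs2, a regulator of G protein signaling (58.9 against 16.0 and 23.8 against 8.97 CPM), Ifi203, an interferon-inducible gene (35.8 against 13.1 and 22.6 against 9.56 CPM), and Rnd3, a small GTPase (18.9 against 6.76 and 27.9 against 4.18 CPM). Their log2 ratios were 1.502 and 1.91, 1.88 and 1.41, 1.45 and 1.24, and 1.49 and 2.74. These genes were seen in few cells, and Il19 in 25 against 18 cells of library 7 and 16 against 4 of library 8. A single matched cell held 64.3% of the Il19 UMIs of its group in library 8. Among chemokine-high cells, 1 cell held 32 of 128 Il19 UMIs in library 7 and 1 held 16 of 53 in library 8. In library 7, 90 of the 128 came from cells with 20 to 49 chemokine UMIs. In library 8, Il19 was at 8.73 CPM in cells with 50 or more, beside 19.2 CPM in all chemokine-low cells without matching. With partners drawn within bins of depth, the mean log2 ratio of Il19 over both libraries turned to -0.13.

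The 3 lower genes were Apoe, Pcbd1, and Wipf1, likewise named after their values were seen. None of them was called with partners drawn within bins of depth, where the mean log2 ratios were -1.62, -1.27, and -0.69. The means of Apoe and Pcbd1 thus stayed past 2-fold there. Wipf1 was at a mean log2 ratio of -0.85 against all chemokine-low cells without matching. Wipf1, which encodes a partner of the actin regulator WASP, was at 17.7 against 36.7 CPM in library 7 and 15.4 against 31.1 CPM in library 8. Pcbd1, a dehydratase in biopterin metabolism, was at 8.41 against 24.9 and 13.7 against 31.7 CPM. Apoe, the apolipoprotein E gene, was at 8.83 against 37.2 and 2.97 against 31.7 CPM. Apoe rested on single cells, because 1 matched cell held 47.7% of its UMIs in library 7 and 1 held 64.2% in library 8, and 10 chemokine-high against 9 matched cells of library 7 had any. Its mean log2 ratio turned to 0.069 in cells under 5% mitochondrial UMIs.

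Because 1 partner per cell leaves the matched group small, the levels were also computed against up to 5 chemokine-low cells of like depth per chemokine-high cell (1772 cells). Against these, 9 genes were at least 2-fold higher (0.171%) and 2 lower (0.038%). At 1.5-fold, 43 genes were higher (0.816%) and 38 lower (0.721%) in both libraries. The 1.5-fold limit and the larger group were added after the data were seen. Of the 12 higher genes, 8 stayed past 2-fold, and Rgs2 fell to a log2 ratio of 0.52 in library 8. Of the 3 lower genes, 1 stayed past 2-fold.

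Genes of the NF-κB pathway mostly lay above 0 on the log2 scale. NF-κB is the transcription factor family activated by Toll-like receptors and the BCR, and several of its targets encode its own inhibitors. All 16 genes of the list were tested, with a median log2 ratio of 0.39 in library 7 and 0.36 in library 8 against matched cells, beside -0.03 and -0.01 over all genes tested. Only Nfkbiz passed 2-fold. Against up to 5 cells, 13 were above 0 in both libraries and 1, Bcl3, was below 0, while 1310 of the 5270 genes were above and 1905 below 0 in both. Higher past 1.5-fold were 3 of the 16, Nfkbiz, Nfkbid, and Tnfaip3, beside 43 of all 5270 genes (0.816%). Tnfaip3 encodes A20, an inhibitor of NF-κB signaling, and was at 64.4 against 36.2 CPM and 58.8 against 33.3 CPM.

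The subunit genes differed less. Nfkb1 was at 231 against 134 CPM in library 7 and 172 against 125 CPM in library 8, and Rel at 272 against 198 and 292 against 197 CPM. Nfkbia, which encodes the inhibitor IκBα, was at 1314 against 1301 and 1249.6 against 1240.4 CPM, a log2 ratio of 0.01 in both libraries. Tnip3, which encodes a binding partner of A20, stood outside the list, is named after its values were seen, and was at 216 against 91.8 CPM and 151 against 81.4 CPM.

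Among the immediate early genes tested, only Egr1 passed 1.5-fold, beside 43 of all 5270 genes (0.816%). Egr1, a transcription factor gene induced within minutes of BCR or PMA signaling, was at 126 against 76.1 CPM in library 7 and 128 against 70.6 CPM in library 8, with log2 ratios of 0.73 (0.54 to 0.92) and 0.86 (0.62 to 1.09). Of the 9 genes of the EGR and NR4A list, 3 reached the UMI minimum, with medians of 0.01 and -0.01 on the log2 scale against matched cells. Against up to 5 cells their medians were 0.14 and 0.03. Those below the minimum included Egr2, Egr3, and all of Nr4a1 to Nr4a3, so no call was made for them in either direction. In the AP-1 list 5 of 12 genes were tested, 3 above and 2 below 0 in both libraries against up to 5 cells, beside 1310 and 1905 of all 5270 genes. Jun was at 230.1 against 163 CPM and 233 against 164 CPM, and Jund went the other way, at 486 against 716 and 459.7 against 624 CPM. None of the 5 passed 1.5-fold in both libraries.

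Surface and costimulatory genes gave a mixed picture. Of the 9 tested genes of the costimulation and activation list, 6 were above 0 in both libraries and 3 below, beside 1310 and 1905 of all 5270 genes, with medians of 0.50 and 0.37 on the log2 scale against up to 5 cells. Cd44, an adhesion receptor of activated cells, was at 439 against 300.4 CPM in library 7 and 378 against 292 CPM in library 8. Cd86, the ligand of CD28 and CTLA-4, was at 157 against 97.7 and 125 against 96.4 CPM. Cd38 was lower, at 92.5 against 149 and 88.5 against 144 CPM. Outside this list, the surface protein genes Cd200, Btla, and Ctla4 passed 1.5-fold, beside 43 of all 5270 genes (0.816%). Of these, Btla and Ctla4 are named after their values were seen. Cd200 was at 59.7 against 23.1 and 29.7 against 15.6 CPM. Ctla4 was at 35.8 against 16.4 and 35.6 against 19.0 CPM, and Btla at 47.1 against 25.1 and 41.0 against 19.5 CPM. In cells with 50 or more chemokine UMIs, Btla was at 63.3 CPM in library 7 but at 21.8 CPM (10 UMIs) in library 8. There it was at 49.6 CPM at 10 to 19, 46.5 CPM at 20 to 49, and 20.7 CPM at 0 to 1.

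Ccr7, the receptor that guides lymphocytes toward T cell zones, passed 1.5-fold among 4 tested chemokine receptor and homing genes, beside 43 of all 5270 genes (0.816%). It was at 90.4 against 47.8 CPM and 87.3 against 51.1 CPM. No other chemokine gene reached the UMI minimum, among 21 genes that included Ccl5, Ccl17, Ccl22, Cxcl10, and Cxcl16. Of 23 cytokine genes 5 were tested, and Il33, an alarmin of the IL-1 family, was at 122 against 76.1 CPM in library 7 and 166 against 64.4 CPM in library 8. Of the 279 Il33 UMIs in the chemokine-high cells of library 8, 217 came from the 42 cells with 50 or more chemokine UMIs (474 CPM), and the 51 cells with 20 to 49 were at 8.61 CPM, so that its level in library 8 rested on that step. A single cell held 26.5% of these UMIs. Tnf had opposite signs in the 2 libraries, at 18.9 against 25.8 and 30.3 against 26.5 CPM. The inducing factors of Il10 were tested for 5 of 13 genes, and Irf4 was at 87.1 against 37.7 CPM and 59.4 against 40.0 CPM, with log2 ratios of 1.21 (0.96 to 1.45) and 0.57 (0.23 to 0.90).

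Genes of B cell identity mostly lay below 0 on the log2 scale. Of 20 genes, 17 were tested, with median log2 ratios of -0.37 in library 7 and -0.48 in library 8 against matched cells, beside -0.03 and -0.01 over all genes tested. None passed 2-fold. Against up to 5 cells, 13 of the 17 were below 0 in both libraries and 0 above, beside 1905 below and 1310 above among all 5270 genes. Lower past 1.5-fold were 3 of the 17, beside 38 of all 5270 genes (0.721%). Cd79b, which encodes a signaling chain of the BCR, was at 185 against 336 CPM and 183 against 346 CPM, with log2 ratios of -0.86 (-1.01 to -0.72) and -0.92 (-1.09 to -0.75). Pax5, the factor that maintains B cell identity, was at 34.9 against 64.1 and 41.6 against 66.3 CPM. Bank1, a BCR adaptor, was at 46.3 against 80.4 and 46.9 against 78.0 CPM.

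The partner chain gene Cd79a hardly differed, at 989 against 983 CPM in library 7 and 855 against 963 CPM in library 8. Ebf1, another B cell factor gene, was at 590.1 against 639 and 725 against 714 CPM. Both levels, with Ighm at 1017 and 766 CPM and Igkc at 2369 and 1502 CPM, fit the label of B cells. Ms4a1 was at 24.4 and 29.1 CPM in the chemokine-high cells and at 20.7 and 29.9 CPM in matched cells.

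Signaling genes close to the BCR had medians nearer to 0 than those of B cell identity against matched cells. The 2 lists were close without matching, at -0.39 for BCR signaling and -0.41 for B cell identity over both libraries. They were also close in library 7 alone with the genes tested there, at -0.35 and -0.37. Of 17 genes, 13 were tested, 7 were below and 2 above 0 in both libraries against up to 5 cells, beside 1905 and 1310 of all 5270 genes, and the medians were -0.25 and -0.19. Lower past 1.5-fold was 1 of the 13, Ptpn6, beside 38 of all 5270 genes (0.721%). Ptpn6 encodes the inhibitory phosphatase SHP-1 and was at 55.9 against 131 CPM and 73.0 against 119 CPM. Its log2 ratios were -1.23 (-1.49 to -0.97) and -0.70 (-0.99 to -0.43). Fcgr2b, the inhibitory Fc receptor gene, was at 34.5 against 49.9 and 31.5 against 46.9 CPM. Also among the 38 lower genes, and named after their values were seen, were the transcription regulators Bcl11a and Lmo2, with Bcl11a at 110.2 against 193 and 109 against 170.4 CPM. In the LY6 family, Ly6a was at 47.1 against 89.3 and 51.1 against 93.3 CPM and Ly6e at 79.9 against 141 and 103 against 166 CPM.

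Iglc2, a lambda light chain constant gene named after its values were seen, was at 141 against 269 CPM in library 7 and 151 against 265 CPM in library 8. Counted by cells, lambda exceeded kappa UMIs in 17 chemokine-high and 32 matched cells of library 7, and in 18 and 20 cells of library 8. The part of lambda cells in the Iglc2 difference was not tested.

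**Figure D4:**
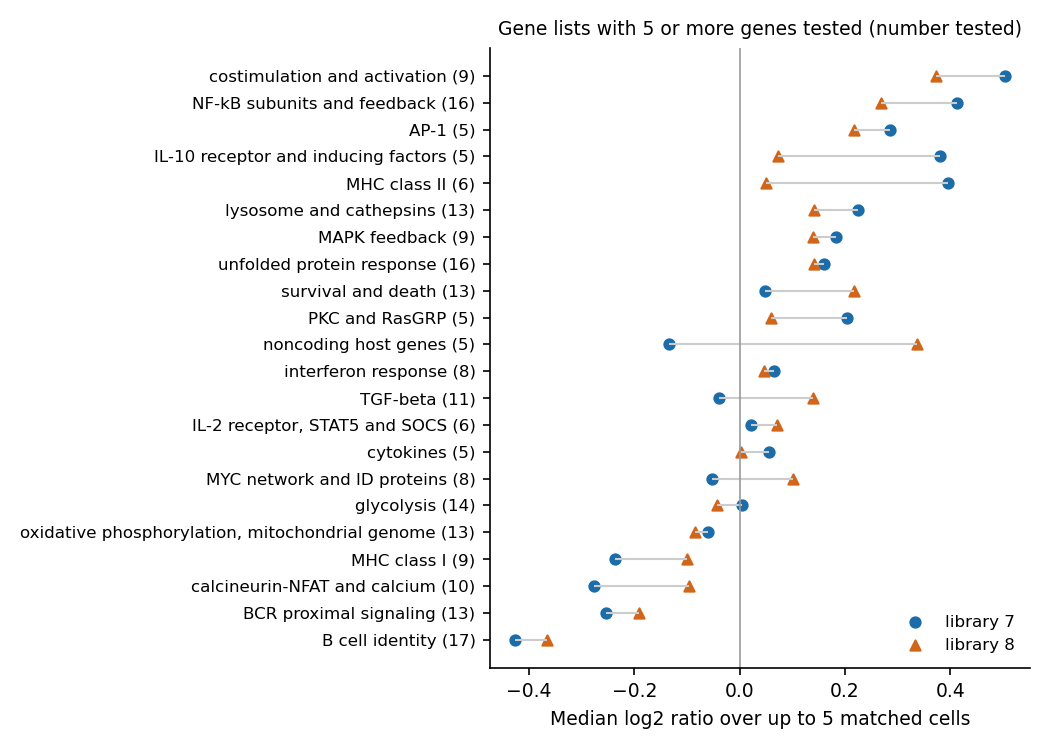
Median log2 ratio of chemokine-high over up to 5 matched chemokine-low cells in library 7 (circles) and library 8 (triangles), for each gene list with at least 5 genes tested, whose number stands in brackets. The list of costimulation genes (0.50 and 0.37) and that of NF-κB genes (0.41 and 0.27) lie at the upper end and B cell identity (-0.43 and -0.37) at the lower.

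Of the lists with few genes tested, the LY6 family (3 genes) had medians of -0.82 and -0.69 and the surface markers of regulatory B cells (3 genes) 0.45 and 0.92 against up to 5 cells. Of these 3 surface markers, Cd200 passed 1.5-fold, beside 43 of all 5270 genes (0.816%). Calcineurin-NFAT and calcium genes had medians of -0.28 and -0.10, with 7 of 10 below and 1 above 0 in both libraries, beside 1905 and 1310 of all 5270 genes. The medians of other lists were 0.16 and 0.14 for 16 unfolded protein response genes, 0.22 and 0.14 for 13 lysosome genes, 0.40 and 0.05 for 6 MHC class II genes, -0.24 and -0.10 for 9 MHC class I genes, and -0.04 and 0.14 for 11 TGF-β genes. The 13 respiratory chain genes of the mitochondrial genome were all slightly below 0 in both libraries against up to 5 cells, beside 1905 of all 5270 genes. Their medians were -0.06 and -0.09 there, and -0.005 and -0.09 against 1 matched cell each. The 8 tested interferon response genes had medians of -0.18 and 0.08 against matched cells, and of 0.07 and 0.05 against up to 5 cells. Of these 8, 1, Ifi203, was higher past 2-fold against matched cells, beside 12 of all 5270 genes (0.228%). Isg15 was at 155 against 112 and 154 against 96.6 CPM. Samhd1, 1 of the 8, was lower past 1.5-fold against up to 5 cells, beside 38 of all 5270 genes (0.721%). It was at 14.3 against 22.04 and 15.4 against 24.7 CPM. No gene of the lists for glycolysis, survival, plasma cells, or MYC passed 1.5-fold in both libraries.

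Most markers of T, NK, myeloid, mast, red, and stromal cells had no UMI, and Hbb-bt, Cd63, and Pecam1 alone were above 10 CPM. Over all chemokine-high cells, 9 of 11 T cell markers (Cd3e, Cd4, and Cd8a among them), 9 of 10 NK cell markers, and all 7 mast cell and basophil markers had no UMI. The summed T cell markers came to 1.68 and 0.59 CPM and the NK cell markers to 0 and 0.59 CPM. Of 14 monocyte and macrophage markers 10 had no UMI, including Lyz2, Csf1r, and Adgre1, and the most abundant was Cd63, at 58.9 and 39.2 CPM, which many cell types express. Of 7 stromal cell markers 5 had no UMI, and Pecam1 was at 53.4 CPM in chemokine-high and 51.9 CPM in matched cells of library 7. In library 8 it was at 49.9 CPM in chemokine-high cells, while all 7 stromal markers of the matched cells summed to 38.9 CPM. Among 8 neutrophil and 10 dendritic cell markers 6 each had no UMI, and their sums in chemokine-high cells were at most 3.36 CPM. Among 6 red cell genes, Hbb-bt was at 213 CPM in chemokine-high and 253 CPM in matched cells of library 7 and at 303 and 207 CPM in library 8, so that its order reversed between the libraries. The part of other cells in the Hbb-bt level was not tested.

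The levels were also followed over steps of the chemokine count. These steps are cut from the counts that chose the cells and are given as a description. They hold all cells of a step and are not matched on depth. Median depth was 9360.5 UMIs at 0 to 1 and 11075 at 50 or more in library 7, and 9064.5 and 9747 in library 8. In library 7, Slamf7 was at 24.8 CPM in cells with 0 to 1 chemokine UMIs, 52.0 CPM at 10 to 19, 81.8 CPM at 20 to 49, and 187 CPM at 50 or more. In library 8 the corresponding values were 23.4, 68.2, 77.5, and 142 CPM. In both libraries the interval of the highest step lay above that of the step from 20 to 49. Nfkbiz was at 113, 168, 243, and 329 CPM in library 7 and at 105, 178, 189, and 330 CPM in library 8.

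Both genes also broke this order at the steps not yet given, with Nfkbiz at 178 and 188 CPM at 5 to 9, above its levels at 10 to 19, and Slamf7 in library 8 at 46.6 CPM at 2 to 4 and 44.3 CPM at 5 to 9. Serpinb6b reached 273 and 271 CPM at the highest step, from 47.3 and 48.0 CPM at the lowest, but in library 8 it was at 126 CPM at 10 to 19 and at 99.8 CPM at 20 to 49. Il1rn had its highest value in library 7 at 10 to 19 chemokine UMIs (99.6 CPM) and was at 61.8 CPM at 50 or more, while in library 8 its highest value was at 50 or more (93.9 CPM). Cd79b fell from 357 CPM at 0 to 1 to 191 CPM at 10 to 19 in library 7 and from 378 to 157 CPM in library 8, and was at 164 and 227 CPM at the highest step. Il10 stayed between 128 and 153 CPM over all 6 steps in both libraries. The steps also show that cells with 2 to 9 chemokine UMIs, which belong to neither group, mostly lay between them, with Slamf7 at 38.9 and 46.6 CPM at 2 to 4 and 49.8 and 44.3 CPM at 5 to 9.

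**Figure D5:**
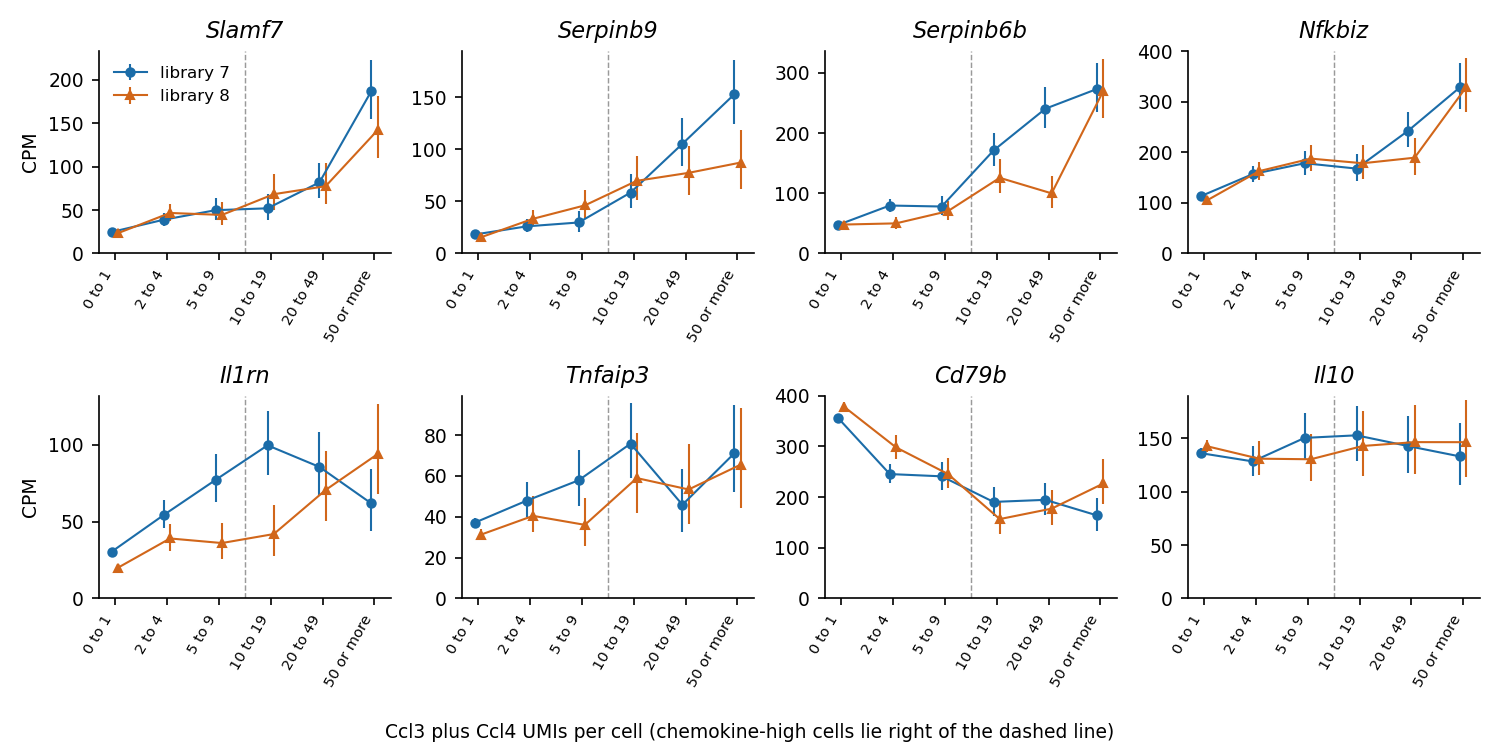
Level of 8 genes in CPM, on axes from 0, in noncycling cells with fewer than 5 Il10 UMIs, grouped by the UMIs of Ccl3 plus Ccl4 per cell, in library 7 (circles) and library 8 (triangles) with 95% Poisson intervals. The cells were not matched on depth. Slamf7 and Nfkbiz are highest at 50 or more chemokine UMIs in both libraries (187 and 142 CPM, 329 and 330 CPM), Cd79b is highest at 0 to 1, and Il10 stays between 128 and 153 CPM.

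The same genes were examined in noncycling cells with 5 or more Il10 UMIs, where chemokine-high cells (233, of which 218 found a partner) were set beside chemokine-low cells of like depth. Of 4791 genes tested, 4 were at least 2-fold higher in both libraries (0.0835%) and 0 lower. These were Slamf7, with log2 ratios of 1.21 and 1.38, Serpinb9 with 1.74 and 1.97, Il19 with 1.41 and 2.67, and Ifih1 with 1.06 and 1.22. All 4 were also among the 12 genes of the cells with fewer Il10 UMIs, where Il19 rested on few cells. Of 10 of the 12 that were tested, 8 were above 0 in both libraries, beside 1183 of all 4791 genes tested. Library 8 gave small values for some of the others, with Nfkbiz at 0.25 beside 0.71 in library 7, Serpinb1a at -0.16 beside 1.49, and Il1rn at 0.31 beside 2.05. A difference between the 2 Il10 classes was not tested.

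In libraries 5 and 6, cells under the same chemokine and Il10 limits differed from their matched cells in many more genes, 99 higher (3.07%) and 31 lower (0.96%) of 3229 tested, among 118 cells of which 117 found a partner. Only 5 of the 12 genes had at least 50 UMIs in both of these libraries, and 2 of them, Slamf7 and Serpinb1a, were above 0 in both, beside 1306 of the 3229 tested. Nfkbiz was at a like level in both groups there, at 306 against 329 CPM in library 5 and 337 against 333 CPM in library 6. Egr1 was at 90.8 against 13.1 CPM and 81.2 against 14.4 CPM. Cd79b was lower in these cells too, with log2 ratios of -0.83 and -0.51. Fewer cells make these ratios less precise than those of libraries 7 and 8.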

How the data were processed

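Members and gene lists were chosen with earlier results of these data known. The authors deposited UMI counts per gene and cell, made with bcl2fastq and Cell Ranger (version 3.1.0) on mm10 and combined over libraries with the aggregation step of Cell Ranger, which evens out sequencing depth. The counts were used as deposited, with neither imputation nor size factors. Of the 35989 columns of the matrix, the last were paired in order with the 19920 barcodes, an order that no file header states, and the first 16069 columns stayed out of the work. Doublets were not called or removed.

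UMIs were summed over cells per library and divided by the total to give CPM, with exact Poisson intervals. Log2 ratios had exact conditional 95% intervals and shares Clopper-Pearson intervals (Python, version 3.11.15; SciPy, version 1.17.1; NumPy, version 2.4.6). Each chemokine-high cell was matched to the nearest chemokine-low cell of its library by total UMIs without Ccl3 and Ccl4, within 5% and without reuse. The rule for named genes was at least 2-fold in both libraries and 50 CPM, up to 20 in each direction, beside Ccl3, Ccl4, Il10, and the genes of the lists. No count model was fitted, since no sample could be assigned, and the ratios were tested on simulated data. TMM factors (edgeR, version 4.0.16) and median-of-ratios size factors (DESeq2, version 1.42.0; R, version 4.3.3) served as alternative scalings of the counts. Gene positions are from GENCODE on GRCm38, and promoters from RefSeq on GRCm38.p6.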

Additional observations from a re-analysis of the deposited data

Results flagged for a closer look

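Apoe and Ifi203 moved one way in the chemokine-high cells of libraries 7 and 8 and the other way in the cells of libraries 5 and 6 under the same limits. The log2 ratio of Apoe was -2.07 in library 7 and -3.42 in library 8, but 0.77 in library 5 and 1.83 in library 6. That of Ifi203 was 1.45 and 1.24 in libraries 7 and 8, but -0.73 in library 5 and -0.59 in library 6. The difference between the pairs of libraries was not tested in either gene. Without the 5 cells with the most Apoe UMIs in each group, the log2 ratio of Apoe in library 7 was 0.31. In library 8 only 5 chemokine-high cells had an Apoe UMI, so no such ratio could be given.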

How the results depend on the processing

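No paired analysis was possible because no library number is tied to a replicate of the labels, and cells were matched within each library instead. The share of chemokine-high cells, 4.73%, was 2.86% from 20 chemokine UMIs on, 7.27% from 5 on, 1.504% without any Il10 UMI, and 5.71% after thinning. Against 12 genes higher and 3 lower, the counts were 6 higher from 5 chemokine UMIs on, 5 higher without Il10 UMIs, and 7 and 1 after thinning. They were 32 and 50 at a minimum of 10 UMIs per library, 3 and 0 at 200, and 49 and 158 at 1 UMI in each group. Without matching they were 16 and 68, of which 9 and 1 were among the 12 and 3. Under 5% mitochondrial UMIs they were 9 and 1, of which 6 and 0 were among the 12 and 3. With the UMI minimum also applied in 1 library only, which changes the genes tested, library 7 alone gave 40 and 45 genes and library 8 alone 25 and 23. The median of the BCR signaling list, -0.16 over both libraries, was -0.39 without matching and -0.35 in library 7 alone (-0.14 in library 8 alone), with the genes tested there, and that of the NF-κB list, 0.37, was 0.27 with partners drawn within bins of depth. The B cell identity median stayed between -0.48 and -0.37 in 8 alternatives, ends that are library 8 alone and library 7 alone. List medians were not computed for the changed chemokine and Il10 limits, UMI minimums, thinning, or cell filters. The gap between Il10 classes, 6.68 percentage points, was 2.64 after thinning, which also lowered both limits to 5 and 3 UMIs and left out 355 cells. Il19 reversed to -0.13 with partners drawn within bins and Apoe to 0.069 under 5% mitochondrial UMIs, and the cause was not tested. Over 18 alternatives the log2 ratio of Slamf7 stayed between 1.97 and 2.60, that of Serpinb9 between 1.89 and 3.31, and that of Nfkbiz between 1.03 and 1.33. Not all of these alternatives could move a ratio. The UMI minimums change only which genes are tested, the scalings shift all ratios nearly alike, and each library alone repeats its main value. Below 2-fold fell Serpinb1a (0.78 with partners drawn within bins, 0.95 from 5 chemokine UMIs on), Kctd12 (0.96 from 5 on, 0.94 under 5% mitochondrial UMIs), Wipf1, which came nearest to 0 from 5 on (-0.60), and Apoe (-0.03 without any Il10 UMI). Of the 12 higher genes 7 were called with partners drawn within bins, and none of the 3 lower, although Apoe and Pcbd1 kept means of -1.62 and -1.27.

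A gene near 50 UMIs per library has wide intervals, and the larger counts at lower minimums rest on still fewer UMIs. TMM and median-of-ratios scaling raised all log2 ratios by at most 0.06, which ended the call of Wipf1 (-0.99 under both). The part of free RNA in the chemokine UMIs was not tested.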
